A study of Mus musculus with 16 samples.

Results

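In B-only regions, CpGs were mostly unmethylated in splenic B cells and mostly methylated in splenic T cells. These regions were 1 kb stretches of the mouse genome, away from promoters of protein-coding genes. They were selected on their methylation levels: a region had to lie on chromosomes 1 to 19 more than 2 kb from any GENCODE vM21 protein_coding transcription start site (TSS), hold at least 5 CpGs and at least 150 calls per cell type, and reach 80% or more in T cells and 40% or less in B cells. Of 1489531 regions that passed the other conditions (eligible regions), 1143 were B-only, which is 0.0767%. The mirror-image rule gave 2842 T-only regions, and 22273 regions were at 40% or less in both cell types. The study's data were 16 whole genome bisulphite sequencing libraries from C57BL/6J mice aged 6 to 8 weeks, 8 of resting CD43- B cells and 8 of naive CD4+ CD62L+ T cells, all sorted on magnetic columns from spleen. For each sex and cell type the labels give 2 libraries of the bisulphite assay (BS), which reads 5-methylcytosine and 5-hydroxymethylcytosine alike as methylated, and 2 of the oxidative bisulphite assay (oxBS), which reads only 5-methylcytosine as methylated. No allele or treatment distinguishes the groups, and DNA came from pooled mice. The labels name no mouse, and oxidation was applied to part of a ligated DNA sample, so BS and oxBS libraries may share DNA and the spread between libraries may be partly technical.

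In differentiated cells most CpGs are methylated, and loss of methylation away from promoters is a known feature of active enhancers, where bound transcription factors and the TET enzymes, which oxidise 5-methylcytosine to 5-hydroxymethylcytosine, keep DNA unmethylated. Enhancers are used by particular cell types, so distal unmethylated stretches differ between lineages far more than promoters do. In B cells the factors EBF1, PAX5, E2A, PU.1, IRF4, IRF8 and the octamer-binding OCT2 are known to establish and maintain the lineage, and EBF1 in particular is known to open closed chromatin early in the lineage.

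The libraries held between 118868248 and 164440353 calls on autosomal CpGs in B cells, against 151319281 to 163580930 in T cells. A B-only region was covered by a median of 631 calls in B cells and 711 in T cells over the 8 libraries of each. The cell type labels were checked at promoters, taken as 500 bp on either side of the gene start. At *Ms4a1*, which encodes the B cell surface protein CD20, library levels lay between 0 and 5.66% in B cells, against 89.5 to 97.1% in T cells. At *Cd3e*, a chain of the T cell receptor complex, they lay between 85.2 and 92.6% in B cells, against 0.541 to 2.47% in T cells. The promoters of *Cd79a*, *Cd79b* and *Pax5* were also lower in every B cell library than in any T cell library, and those of *Cd3d*, *Cd3g* and *Lck* lower in every T cell library than in any B cell library.

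Levels over the members separated the libraries of the cell types in different ways, which bears on the values below. In T cells, levels over the B-only regions followed the labelled assay: medians over regions lay between 90.6 and 91.0% in the 4 BS libraries and between 87.3 and 88.1% in the 4 oxBS libraries. In B cells the higher and lower libraries were divided otherwise. The median was 32.6% in female BS library 10 but 25% in female BS library 12, and 32.9% in male BS library 1 but 25% in male BS library 4. Among libraries labelled oxBS it was 32.7% in female library 9 and 33.3% in male library 2, against 25.7% in female library 11 and 25.9% in male library 3. Each labelled sex and assay therefore held 1 higher and 1 lower B cell library. The same 4 libraries were the higher ones over the T-only regions, where their medians lay between 90.8 and 91.0% and those of the other 4 between 88.9 and 89.4%. By number, the higher libraries were 1 and 2 with 9 and 10, and the lower ones 3 and 4 with 11 and 12, and each such pair of adjacent numbers held 1 BS and 1 oxBS library of the same sex. Within these pairs the pooled level over the members, BS minus oxBS, differed by -1.26, -0.65, 0.12 and -0.09 points, less than the gap between the higher and the lower pairs. In the 4 pairs of adjacent T cell libraries the same difference lay between 2.59 and 2.72 points. The labels do not say whether libraries of adjacent numbers share DNA, and the cause of either division was not tested. Leaving out B cell libraries 2, 4, 9 and 12, which is 1 library of each pair, gave 1160 regions, of which 1063 were among the 1143, a setting chosen after seeing the data.

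**Figure D1:**
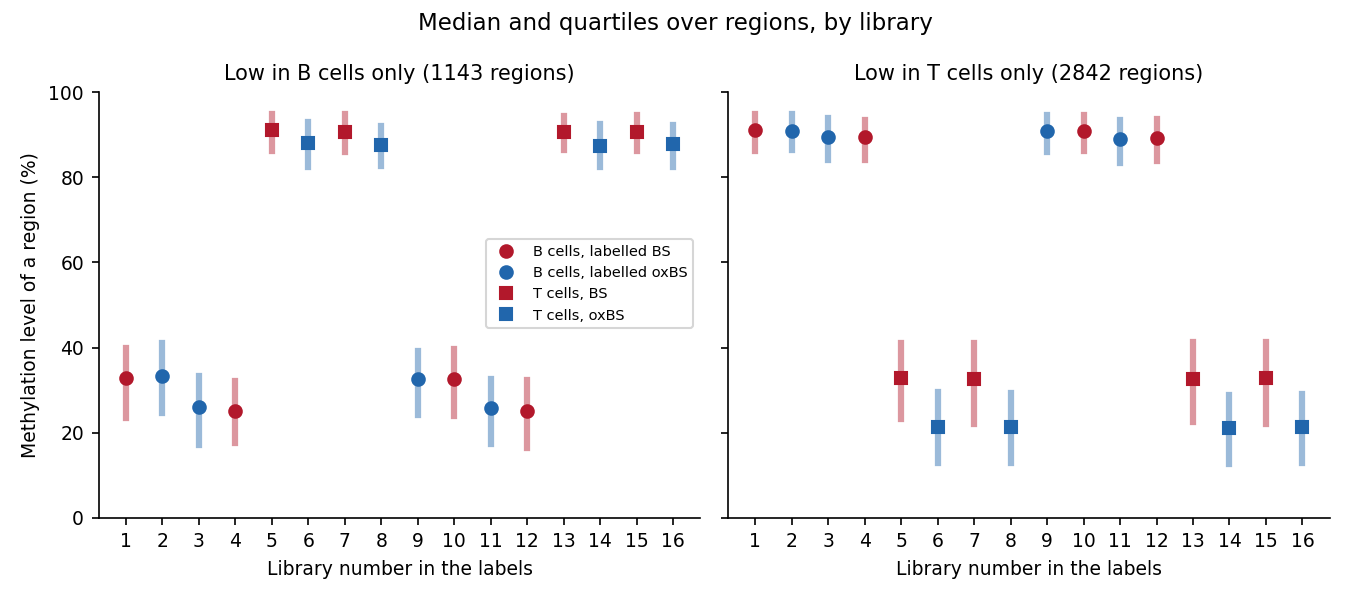
Median methylation level over regions (points) with the lower and upper quartiles (bars) in each library, for the B-only regions on the left and the T-only regions on the right, against the library number in the labels. Circles are B cells, squares T cells, red the libraries labelled BS and blue those labelled oxBS: T cell libraries separate by assay in both panels, whereas B cell libraries 1, 2, 9 and 10 lie above 3, 4, 11 and 12 in both.

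Sequences of 5 regions are shown to make the unit of measurement concrete. Each is the stretch of 300 bases with the most CpGs in its region, read 5′ to 3′ on the plus strand of mm10 (RefSeq GRCm38.p6), with the CpGs, the positions at which methylation was called, in capitals. The first 2 belong to the leading genes of 2 B cell gene lists, *Irf8* and *Blnk*. *Irf8* encodes an interferon regulatory factor of B and myeloid cells, and *Blnk* an adaptor of B cell receptor signalling. The last 3 were chosen after their values were seen because they hold the letters of an EBF1 site. They are named by the nearest protein-coding TSS, which lay 154745 bp from the region for *Qrsl1*, 41317 bp for *Ebf1* and 4632 bp for *Tnfrsf13c*. The last of these genes encodes the receptor for the survival factor BAFF.
Irf8, chr8:120747359-120747658: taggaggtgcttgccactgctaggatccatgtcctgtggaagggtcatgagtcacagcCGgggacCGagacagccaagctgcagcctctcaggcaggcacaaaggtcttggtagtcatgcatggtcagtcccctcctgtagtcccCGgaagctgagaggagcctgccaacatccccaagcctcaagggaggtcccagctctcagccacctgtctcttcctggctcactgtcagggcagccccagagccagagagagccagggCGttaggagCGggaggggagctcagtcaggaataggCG
Blnk, chr19:40990662-40990961: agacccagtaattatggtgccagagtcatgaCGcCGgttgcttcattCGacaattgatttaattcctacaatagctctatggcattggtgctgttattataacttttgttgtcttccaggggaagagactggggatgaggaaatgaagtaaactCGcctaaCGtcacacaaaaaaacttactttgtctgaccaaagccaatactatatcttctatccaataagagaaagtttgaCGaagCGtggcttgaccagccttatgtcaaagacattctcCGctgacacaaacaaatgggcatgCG
Qrsl1, chr10:43746277-43746576: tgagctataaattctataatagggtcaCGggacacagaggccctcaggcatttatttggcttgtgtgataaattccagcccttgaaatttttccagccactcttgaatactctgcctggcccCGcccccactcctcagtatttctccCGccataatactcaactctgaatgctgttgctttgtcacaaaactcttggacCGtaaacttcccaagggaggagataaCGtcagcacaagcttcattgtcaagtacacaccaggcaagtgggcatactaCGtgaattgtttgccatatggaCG
Ebf1, chr11:44575001-44575300: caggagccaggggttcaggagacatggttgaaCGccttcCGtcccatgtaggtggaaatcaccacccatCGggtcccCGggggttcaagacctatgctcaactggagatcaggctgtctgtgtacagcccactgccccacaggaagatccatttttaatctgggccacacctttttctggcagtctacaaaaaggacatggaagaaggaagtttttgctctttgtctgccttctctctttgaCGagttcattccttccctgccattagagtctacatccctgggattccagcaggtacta
Tnfrsf13c, chr15:82229653-82229952: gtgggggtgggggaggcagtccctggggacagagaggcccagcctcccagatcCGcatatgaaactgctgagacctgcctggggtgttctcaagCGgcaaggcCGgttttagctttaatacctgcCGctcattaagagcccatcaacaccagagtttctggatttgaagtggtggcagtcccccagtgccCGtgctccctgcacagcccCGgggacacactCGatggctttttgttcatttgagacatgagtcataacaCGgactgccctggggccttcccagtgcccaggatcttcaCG

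Over these stretches, pooled levels in T cells lay between 91.6 and 96.6%, and those in B cells between 0.216 and 21.6%. In the *Irf8* stretch, 5 of the 6 CpGs had no methylated call in B cells and the other stood at 1.18%, while the lowest of them in T cells was 87.1%. The *Blnk* stretch was graded in B cells: its first 3 CpGs stood at 48.4, 64.5 and 65.2%, and its last 2 at 2.94 and 0%, although every CpG in it was at 93.2% or more in T cells. Low methylation in B cells thus covered some of these stretches whole and others in part.

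The rule let members differ more in B cells, where any level up to 40% passed, than in T cells, where 80% or more was needed. Pooled levels in B cells ran from 0.459 to 40% with a median of 30.4%, and 62 regions were at 10% or less, 155 between 10 and 20%, 334 between 20 and 30% and 592 between 30 and 40%. In T cells the median was 88.9% and 115 regions reached 95% or more. The difference between the cell types had a median of 58.9 points and ran from 40.4 to 95.5 points, which the rule fixes in part and which is therefore given without a test. The median SD over the 8 libraries of a cell type was 7.32 points for B cells, against 3.72 points for T cells. These SDs belong to different levels, at which counting error differs. That of B cells also includes the gap between the higher and the lower libraries. In 1138 of the 1138 members with at least 10 calls in each library, every B cell library lay below every T cell library; of all eligible regions, 1.31% did so, and nothing is read from this contrast because the rule used it. At the limit for B cells, the 3 regions just inside stood at 40, 40 and 39.98% and the 3 just outside at 40.03, 40.05 and 40.08%. At the limit for T cells, the 3 just inside stood at 80, 80.03 and 80.04% and the 3 just outside at 79.97, 79.96 and 79.95%.

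Single CpGs were mostly at either end of the scale, and few regions were low throughout. Of 12589 CpGs with at least 20 calls in each cell type, 54.8% were at 20% or less in B cells, 31.2% between 20 and 80%, and 14.1% at 80% or more. In T cells 84.6% of them were at 80% or more and 1.38% at 40% or less. In 807 members at least 1 CpG remained at 80% or more in B cells, whereas in 56 members every CpG was at 40% or less. The median member had 66.7% of its CpGs at 40% or less. An intermediate level of a region in B cells was therefore often a mixture of low and high CpGs.

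The low stretches were short. The 1143 members formed 1067 runs of touching regions, of which 997 held 1 region, 64 held 2 and 6 held 3. Pooled over the members, B cell methylation was 22.7% in the 250 bp to the right of the centre and 26.9% in the 250 bp to the left. It reached 60.1% at 500 to 750 bp from the centre on the right and 62.1% on the left, outside the selected region, and between 75.5 and 77.5% at 1750 to 2000 bp. In T cells the level stayed between 81.6 and 89.1% out to the same distance. The difference between the cell types was 26.6 points at 500 to 750 bp, 18.1 points at 750 to 1000 bp, 6.12 points at 1750 to 2000 bp and 2.08 points in the last bin before 5 kb, all on the right. The rule set no limit on methylation in the flanks, but it kept protein_coding TSSs more than 2 kb from each region. Flanking bins also include touching members, of which 146 lay in runs. In T cells the level was 78.2% at 2250 to 2500 bp on the left and 79.2% on the right. Among 1812 eligible neighbours that were not members, B cells had a median level of 82.7% and T cells one of 92.0%, and 453 (25%) were lower in B cells by at least 20 points, compared with 0.83% of all eligible regions.

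**Figure D2:**
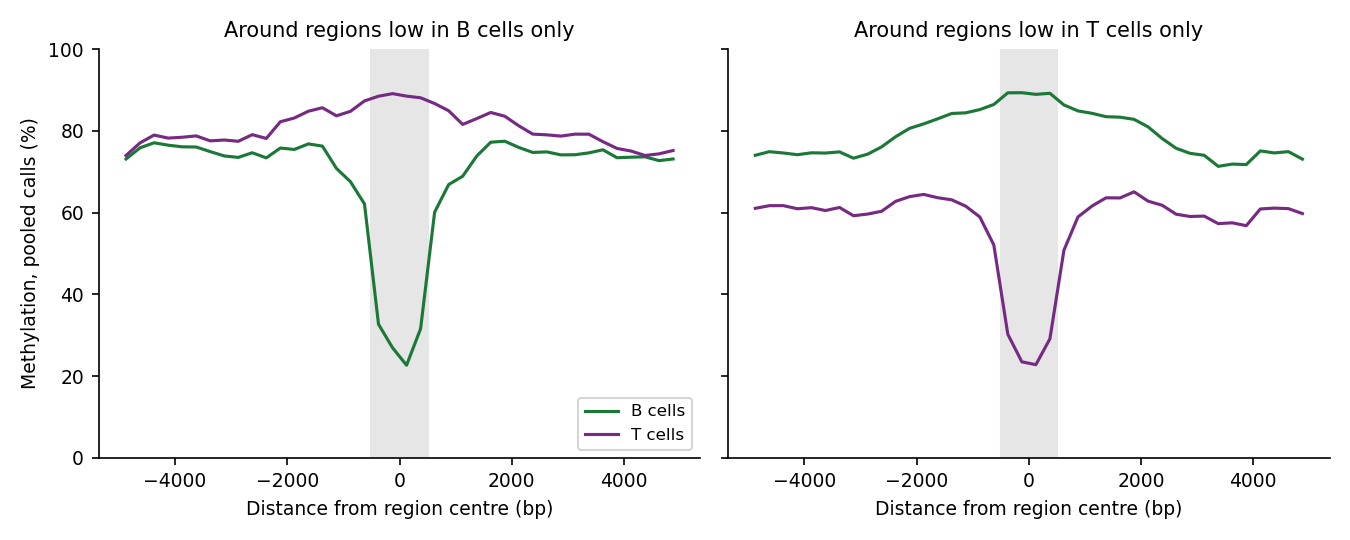
Methylation from pooled calls in bins of 250 bp against the distance from the region centre, in B cells (green) and T cells (purple), around the B-only regions (left) and the T-only regions (right), with the selected 1 kb in grey. Around the B-only regions the B cell line falls to 22.7% near the centre and is back between 75.5 and 77.5% at 1750 to 2000 bp, while T cells stay between 81.6 and 89.1% up to that distance. The rule kept protein_coding TSSs more than 2 kb from each region.

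Of the 6 runs of 3, the 5 with the largest differences lay at *Irf8*, *Adam19*, *Ralgps2*, *Taok3* and *Bcl11a*. The run at *Irf8* (chr8:120745001-120748000) began 6362 bp from the nearest TSS, and its regions stood at 28.8, 11.4 and 4.99% in B cells and at 87.4, 92.7 and 92.6% in T cells. The run at *Bcl11a* (chr11:24256001-24259000), which encodes a zinc finger factor needed for B cell development, lay 175331 bp or more from the nearest TSS. Its regions stood at 32.8, 22.7 and 14.4% in B cells and at 91.6, 94.4 and 83.5% in T cells. The run at *Ralgps2* (chr1:156996001-156999000) rose from 7.22 to 35.6% in B cells along its length, and that in *Taok3* (chr5:117158001-117161000) from 15.4 to 38.0%. In the *Adam19* run (chr11:46125001-46128000) the middle region stood at 9.20% and those beside it at 38.4 and 38.2%. Each run held its lowest level in 1 region, at the end of the run in 4 of the 5.

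The 10 largest differences between the cell types lay between 87.6 and 95.5 points. The largest was in an exon of *Memo1* (chr17:74201001-74202000), where B cell libraries lay between 0 and 4.55% with a median of 2% and T cell libraries between 94.6 and 100%. It held 5 CpGs and 197 calls in B cells, so the next regions rest on more data. A region of 15 CpGs at chr14:33190001-33191000, 4493 bp from the TSS of *Wdfy4*, held 1203 calls in B cells, of which 2.08% were methylated, against 93.2% in T cells. *Wdfy4* encodes a BEACH domain protein of immune cells. B cell libraries averaged 2.01 ± 2.84% and T cell libraries 93.3 ± 2.25% (SD, n = 8 each). The region at chr12:113228001-113229000, between *Tmem121* and the immunoglobulin constant gene *Igha*, stood at 2.29% in B cells and 90.1% in T cells. It is shown by position only, since the nearest protein-coding TSS, that of *Tmem121*, was 42071 bp away. The others lay in, or had as the nearest gene, *Sowaha*, *Qrsl1*, *Cyth1*, *Ap1m1*, *Plppr1*, *Med13l* and *Irf8*, with B cell levels between 1.63 and 6.82%. That of *Qrsl1* was 154745 bp from the TSS, so its assignment is uncertain.

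The members were compared with all eligible regions in where they lay. Of the 1143, 158 (13.8%) overlapped an exon of a protein-coding gene and 507 (44.4%) lay in introns, compared with 11.02 and 34.5% of all eligible regions. A further 379 (33.2%) lay between genes, compared with 46.4% of all eligible regions. The T-only regions had 52.5% in introns and 25.7% between genes. The median distance to the nearest protein-coding TSS was 24002 bp for the members, 21894.5 bp for the T-only regions and 47935 bp for all eligible regions, and 25.5% of members but 16.5% of all regions lay within 10000 bp. Members had a median of 11 CpGs and 45.9% G or C, against 9 CpGs and 43.2% over all eligible regions. Repeats marked in lower case in the reference covered a median of 17.9% of a member and 22.6% of an eligible region, and covered at least 50% of 48 members (4.20%) and of 17.6% of all regions. The number of members per 1000 eligible regions ran from 0.429 on chromosome 18 to 1.20 on chromosome 17.

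Regions were assigned to the protein-coding gene they overlapped, or otherwise to that with the nearest TSS, which gave 905 genes with a member, 713 of them with 1. Gene models that span others collect the members of their neighbours: *Gm20388*, which spans *Irf8* and *Gse1*, held 12, and *Fgfr2*, whose model reaches over *Fam53b*, held 8. Next came *Nedd9* and *Zcchc7* with 7 each and *Clint1* with 6. *Zcchc7* is the gene beside *Pax5*, the master regulator of B cell identity, and no T-only region was assigned to it. Its 7 regions stood between 6.19 and 38.3% in B cells, against 82.6 to 95.7% in T cells. *Nedd9*, a docking protein of integrin and antigen receptor signalling, had its lowest region 3708 bp from its TSS (chr13:41491001-41492000), at 4.69% in B cells and 91.3% in T cells. All 6 regions assigned to *Clint1* lay at least 320051 bp from its TSS, on the side of *Ebf1*, so the assignment by distance is uncertain.

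The gene lists were chosen with earlier results of these data known, so their shares are a description and not independent of these data. Among the B cell lists, the B lineage transcription factors had the most members. Of its 30 genes, 13 had at least 1 B-only region, and the list took 29 members (2.54%), compared with 0.356% of all eligible regions and 2.39% of the T-only regions. *Irf8*, *Ebf1* and *Foxo1* had 4 each, *Irf4* and *Bcl11a* 3 each, and *Mef2c*, *Pou2f2* and *Ets1* 2 each. *Irf8*, *Ebf1*, *Irf4*, *Bcl11a*, *Mef2c* and *Pax5* had no T-only region, whereas *Ets1*, which is also active in T cells, had 28 and *Foxo1* 4. In *Ikzf1* and *Bach2*, both of which work in B and T cells, no B-only region and 13 T-only regions each were found. The median difference between T and B cells over all eligible regions of the list was -1.13 points, against -0.41 points over all eligible regions.

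The regions with the largest difference in this list were read in every library. At *Irf8* (chr8:120747001-120748000) the 8 B cell libraries lay between 0 and 10.8% with a median of 4.80%, and the T cell libraries between 88.3 and 95.4%. At *Irf4*, which drives plasma cell differentiation, a region 27226 bp from the TSS (chr13:30721001-30722000) lay between 8.96 and 21.1% in B cells, against 90.6 to 97.3% in T cells. A region 41317 bp from the TSS of *Ebf1* (chr11:44575001-44576000) lay between 18.8 and 44.3% in B cells, against 93.9 to 97.2% in T cells. No library of one cell type came within 40 points of any library of the other in these 3 regions. The rule and the choice of the largest difference fix most of this gap, so nothing is read from it. The region at *Foxo1*, a factor needed for early B cell development and for the homing of naive lymphocytes, was 364665 bp from the TSS (chr3:52633001-52634000) and lay between 8.81 and 27.9% in B cells. In T cells its 4 BS libraries lay between 89.6 and 98.2% and its 4 oxBS libraries between 77.9 and 82.7%, and these assays are compared below.

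Genes of the B cell receptor pathway came next. Of 35 autosomal genes, 9 had a member, and the list took 17 members (1.49%), compared with 0.26% of all eligible regions and 0.352% of the T-only regions. *Blnk* and *Plcg2*, which encodes the phospholipase activated by the receptor, had 3 each. *Cd22*, an inhibitory co-receptor, *Vav2*, *Rasgrp3* and *Pik3ap1* had 2 each, and *Lyn*, *Syk* and *Cd79b* 1 each. The list also held 10 T-only regions, at 8 genes, with 3 at *Fyn* and 1 at *Syk*. *Blnk* had its largest difference in an intron 3148 bp from its TSS (chr19:40990001-40991000), where B cell libraries lay between 8.16 and 37.9% and T cell libraries between 90.9 and 96.4%. The *Plcg2* region (chr8:117480001-117481000) had a wide spread in B cells, from 16.1% in female BS library 12 to 50.4% in female BS library 10, with T cells between 87.5 and 93.6%. In *Vav2* (chr2:27311001-27312000), a guanine nucleotide exchange factor, B cell libraries lay between 0 and 19.7%. In *Rasgrp3* (chr17:75443001-75444000), an activator of Ras downstream of the receptor, they lay between 4.88 and 26.5%.

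Surface and survival receptors of B cells took 15 members (1.31%) at 10 of 27 autosomal genes, compared with 0.171% of all eligible regions and 0.704% of the T-only regions. *Cxcr5*, which encodes the chemokine receptor that guides B cells into follicles, had 3, and *Tnfrsf13b*, *Tnfrsf13c* and *Ccr6* had 2 each. The list also held 20 T-only regions, at 10 genes. *Ccr7* had 5 of them, *Cd24a* and *Cd83* 3 each and *S1pr1* 2, all without a B-only region. *Cxcr4* had 2 T-only regions and 1 B-only region, and *Ccr6* 1 T-only region. Both *Tnfrsf13b* and *Tnfrsf13c* encode receptors of the BAFF family. The *Cxcr5* region with the largest difference lay between 10.0 and 33.3% in B cells, against 84.2 to 100% in T cells. At *Tnfrsf13c* (chr15:82229001-82230000) B cell libraries lay between 22.1 and 52.0% and T cell libraries between 92.5 and 96.3%. The *Tnfrsf13b* region (chr11:61123001-61124000) lay between 19.05 and 46.3% in B cells, and that at *Ccr6* (chr17:8225001-8226000), a receptor for the chemokine CCL20, between 22.0 and 55.7%.

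The MHC class II and T cell lists were read in the same way. Of the 16 autosomal genes of the MHC class II pathway, by which B cells present antigen, 0 had a B-only or a T-only region among the 770 eligible regions assigned to them, and 12 of those were low in both cell types. The list held 0.0517% of eligible regions, of which 0.0767% were B-only, so nothing is read from the 0. Of 37 genes of T cell identity and signalling 1 had a member, *Tox*, with 1 region 415202 bp from its TSS (chr4:7406001-7407000). That is 0.0875% of members, against 0.317% of all eligible regions and 234 (8.23%) of the T-only regions. The B cell libraries lay between 2.47 and 32.9% in the *Tox* region, and T cell libraries between 86.7 and 96.7%. *Tox* itself had 10 T-only regions.

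**Figure D3:**
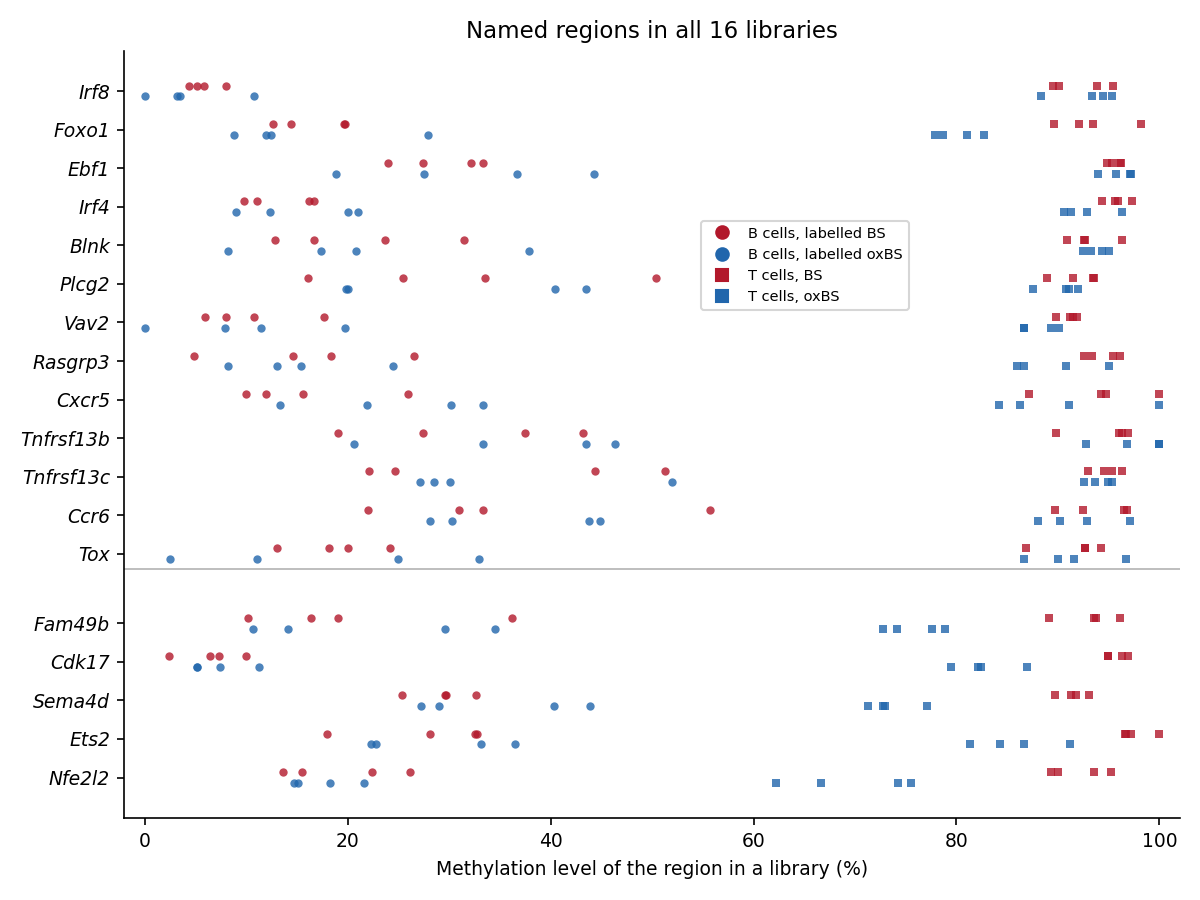
Methylation level in each of the 16 libraries at 18 named B-only regions, 1 row per region, with B cells as circles, T cells as squares, libraries labelled BS in red (upper position) and oxBS in blue (lower position). In the 13 regions of the gene lists above the line B and T cell libraries do not overlap, which the rule largely fixes. In the 5 regions below the line, and at *Foxo1*, the T cell BS libraries lie above the T cell oxBS libraries. B cell libraries labelled BS and oxBS overlap there. The 5 were picked by the smallest p for the assay in T cells.

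Letters of transcription factor sites were searched on both strands of the 1 kb regions, as a description of sequence that the rule had not used. The sites were chosen with earlier results of these data known, so their shares are not independent of these data. The letters TCCCNNGGG, a shortened EBF1 site, or their reverse complement, with overlapping matches counted once per region, were found in 388 of 1143 members (33.9%), compared with 10.2% of all eligible regions and 8.44% of the T-only regions. Counted from the other side, 0.256% of the eligible regions with these letters were B-only and 0.0564% of those without. Because these letters are rich in G and C, the shares were also read within bands of base composition. Between 40 and 45% G or C, 27.6% of members and 8.16% of all regions held them; between 45 and 50%, 34.2 and 13.7%; and at 50% or more, 52.0 and 23.5%. In the T-only regions the shares in these bands were 6.85, 10.8 and 12.5%. Members with and without the letters had similar levels, with medians of 29.4 and 30.9% in B cells.

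The other sites of B lineage factors are given as shares with no test, and were not read within bands of base composition. The octamer ATTTGCAT, bound by OCT1 and OCT2, was found in 11.1% of members, 4.47% of T-only regions and 7.55% of all eligible regions. The E-box CAGCTG (E-box I), a form bound by E2A, was found in 51.7, 40.3 and 34.4%, and the E-box CACCTG (E-box II) in 58.9, 58.1 and 49.2%. For GAGGAAGT, a PU.1-type ETS site, the shares were 8.92, 5.35 and 6.15%, and for GGGANTTTC, a shortened NF-kB site, 5.07, 3.41 and 3.50%. The composite GGAANNGAA, bound by PU.1 with IRF4 or IRF8, was found in 32.0, 29.1 and 28.5%, and the shortened MEF2 site CTATTTATA in 1.75, 1.06 and 1.43%. The last 2 shares were near those over all regions, and that of MEF2 rests on 20 members. Regions low in both cell types held the PU.1-type letters in 12.2%, more than the members, and the EBF1 letters in 17.3%. Of 8 B lineage sites, at least 3 were present in 32.6% of members, 13.9% of T-only regions and 13.4% of all regions. Regions low in both cell types held at least 3 in 22.6%, and the E-box CAGCTG in 47.6%, so these shares were not particular to the members.

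Sites of T lineage factors and of factors shared by the lineages were searched in the same way. CTTTGAT, bound by TCF1 and LEF1, was found in 15.0% of members, 23.9% of T-only regions and 17.6% of all regions, and the GATA site AGATAAG in 12.2, 16.7 and 13.3%. The GATA share in members was near that over all regions. Of sites shared by the lineages, the RUNX site TGTGGTT was found in 24.3% of members, 34.0% of T-only regions and 21.9% of all regions. The shares were 17.8, 18.1 and 15.7% for the AP-1 site TGACTCA, 13.9, 13.5 and 14.5% for the STAT site TTCCNNGAA and 10.1, 9.39 and 6.82% for the KLF site CCACACCC. AGGGGGC, part of the CTCF site, was found in 12.5, 9.43 and 8.60%. The search does not show whether any factor was bound.

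**Figure D4:**
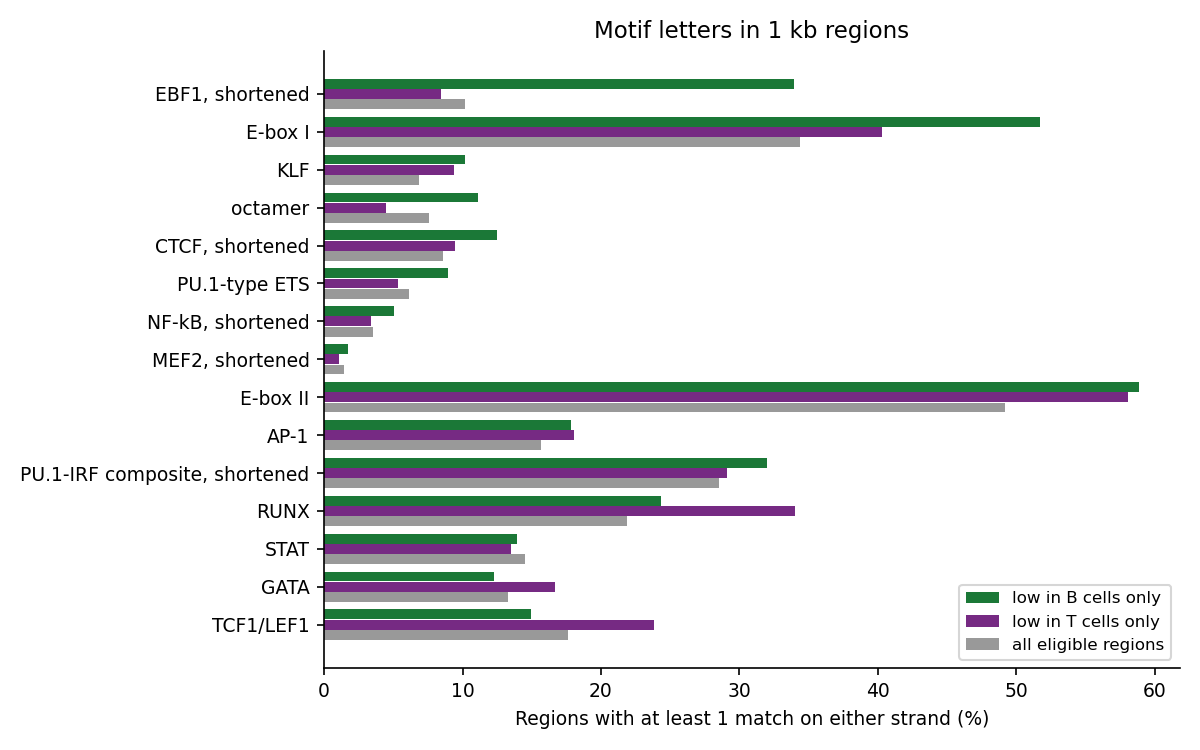
Share of regions (%) with at least 1 match to the letters of each site on either strand, in the B-only regions (green), the T-only regions (purple) and all eligible regions (grey), ordered by the ratio of B-only to all. The EBF1 letters stand out at 33.9% of the B-only regions against 10.2% of all regions, and the TCF1/LEF1 and GATA letters have the smallest ratios.

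Within members that held a site, CpGs near it were compared with those farther away. Around the EBF1 letters, CpGs within 100 bp stood at 11.4% in B cells (1304 CpGs in 388 members), those farther off but within 300 bp at 26.9% and those beyond 300 bp at 42.1%. Around the octamer the same bands stood at 11.98, 25.2 and 36.0%, and around the E-box CAGCTG at 18.7, 27.6 and 36.9%. In T cells the bands around the EBF1 letters stood at 88.6, 89.1 and 88.3%. The gradient was not particular to these letters: around the RUNX letters B cells stood at 21.0, 28.1 and 31.8% and around the CTCF letters at 24.3, 27.7 and 33.2%. T cells had their lowest band around the PU.1-type letters, at 79.8% within 100 bp and 90.2% beyond 300 bp, and stood at 84.7% within 100 bp of the RUNX letters. Around the AP-1 letters B cells stood at 28.8, 28.8 and 26.7%, around the GATA letters at 30.5, 28.6 and 30.5%, and around the TCF1/LEF1 letters at 31.6, 27.2 and 27.8%. These levels are pooled over calls and carry no test, since the B cell levels chose the regions. In the printed stretches, the EBF1 letters begin at base 74 of that at *Ebf1*, where the 5 CpGs together stood at 0.621% in B cells, and at base 208 of that at *Qrsl1*, at 3.06%. They begin at bases 20 and 207 of that at *Tnfrsf13c*, at 7.27%. In this stretch the CpGs at bases 54 to 126 stood at 0% in B cells. Those at bases 210 and 222, in or just after the second match, were its highest, at 16.7 and 19.7%.

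**Figure D5:**
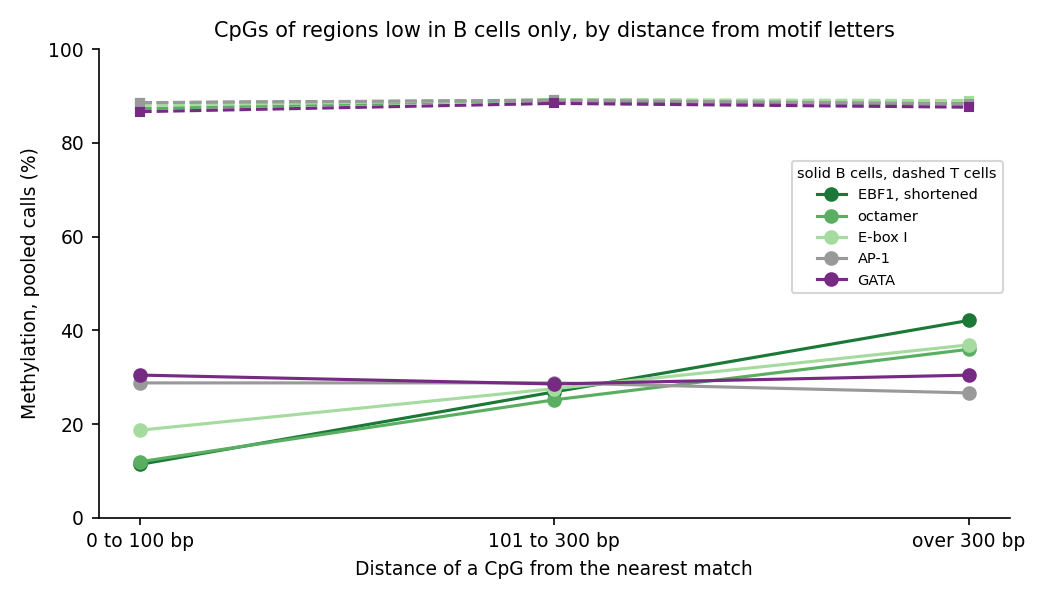
Methylation from pooled calls (%) of CpGs in the B-only regions that hold a given site, in 3 bands of distance from the nearest match, with B cells as solid lines and circles and T cells as dashed lines and squares. In B cells the level rises with distance from the EBF1, octamer and E-box I letters (11.4, 11.98 and 18.7% within 100 bp) and not from the AP-1 and GATA letters, and in T cells the 5 plotted sites lie between 86.7 and 89.3%.

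The assays were compared within each cell type, since they read 5-hydroxymethylcytosine differently. The study treated both assays alike, stating that hydroxymethylation was very low in its libraries. Whether a difference between the assays was 5-hydroxymethylcytosine was not tested. The comparison used a quasi-binomial logistic model with sex as a covariate and Benjamini-Hochberg adjustment over all eligible regions with at least 10 calls in each library. In T cells BS levels were higher than oxBS levels in 107 of 1142 members at an adjusted p under 0.05 (9.37%), and lower in 0. Over all eligible regions 2.96% were called higher. Members were read more deeply, with a median of 711 calls in T cells against 529 over all eligible regions, so the shares are not at equal depth. Among regions at 80% or more in T cells, as all members are by rule, 1.94% were called higher, a comparison chosen after seeing the data, and among the T-only regions 40.5%. The median difference was 2.23 points in the members, 0.833 points over all regions and 9.86 points in the T-only regions. BS was higher in 894 of the 1142 members, but a positive difference was not particular to them, as the positive median over all regions shows. In the 107 called members the difference ran from 4.64 to 22.5 points with a median of 10.4. Introns held 71 of them, compared with 507 (44.4%) of all 1143 members and 34.5% of all eligible regions, a contrast that was not tested. They were at a median of 86.2% in T cells, the others at 89.2%, with 796 and 695 calls. The calls rest on sharing information on the spread across regions: limma on log2 ratios called 0 members, with 231 (20.2%) at an unadjusted p under 0.05 against 10.7% of all regions. The same model with the dispersion of each region alone also called 0, with 152 (13.3%) against 4.95%. With the pairs of adjacent library numbers as a block, a setting chosen after seeing the data, 114 members were called higher, compared with 46903 of 1484543 eligible regions. With the block and the dispersion of each region alone 0 were called, with 98 (8.58%) at an unadjusted p under 0.05 against 2.53% of all regions.

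The 5 members with the smallest p in T cells lay in *Fam49b*, *Cdk17*, *Sema4d*, *Ets2* and *Nfe2l2*. In an intron of *Fam49b*, which encodes a regulator of actin (chr15:64046001-64047000), the BS libraries stood at 89.2, 93.5, 93.8 and 96.1% and the oxBS libraries at 72.8, 74.2, 77.6 and 78.8%. The difference was 17.3 points, with an adjusted p of 6.73e-10 in the quasi-binomial model and 0.118 with limma. The widest gap of the 5 was in an intron of *Nfe2l2*, encoding the oxidative stress factor NRF2 (chr2:75689001-75690000), with BS libraries at 89.3, 90, 93.5 and 95.2% and oxBS libraries at 62.2, 66.7, 74.2 and 75.6%. In *Sema4d* (chr13:51758001-51759000), a semaphorin of lymphocytes, BS stood at 91.5 ± 1.39% and oxBS at 73.5 ± 2.50% (SD, n = 4). The regions in *Cdk17* (chr10:93198001-93199000) and *Ets2* (chr16:95720001-95721000) differed by 12.9 and 11.4 points. The assays did not overlap in any of these 5 regions in T cells, which their choice by the smallest p largely fixes. The *Foxo1* region described above differed by 13.4 points, with an adjusted p of 3.55e-06.

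In B cells, as labelled, 0 of 1139 members were called between BS and oxBS by the quasi-binomial model, with 106 (9.31%) at an unadjusted p under 0.05 against 4.53% of all eligible regions. Limma also called 0, with 12 (1.05%) at an unadjusted p under 0.05 against 4.62% of all regions. With the dispersion of each region alone 0 were called, with 13 (1.14%) against 0.78%. Whether members exceeded all regions at that threshold therefore depended on the model. The block of adjacent library numbers, which takes the gap between the higher and lower pairs out of the spread, also called 0, with 122 (10.7%) at an unadjusted p under 0.05 against 5.13% of all regions. Over all eligible regions 0.00277% were called. The labelled BS level was the higher one in 534 of the 1139 members, and the median difference was -0.33 points. At the 107 members called in T cells, the labelled BS level in B cells was higher in 56, with a median difference of 0.149 points. The absence of calls does not show that the assays were equal at these regions in B cells.

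The difference in the assay effect between cell types was tested with an interaction term. It passed in 14 of 1138 members (1.23%), in all of them with a smaller BS minus oxBS difference in B cells, compared with 0.28% of all eligible regions called in that direction. Of the T-only regions 4.60% were called, all in that direction. Limma called 0 of the members, with 115 (10.1%) at an unadjusted p under 0.05 against 7.78% of all regions. The smallest p was at *Sema4d*, where the labelled BS minus oxBS difference was 22.7 points smaller in B than in T cells, with an adjusted p of 0.000234 in the quasi-binomial model and 0.309 with limma. *Ets2*, *Aldh8a1*, *Cdk17* and *Sla* followed, with differences of -12.3, -13.6, -13.1 and -28.0 points. With the block of adjacent library numbers 26 members were called, all with the smaller effect in B cells on the log-odds scale, compared with 6889 of 1477908 regions called in that direction. With the block and the dispersion of each region alone 0 were called, with 107 (9.4%) at an unadjusted p under 0.05 against 3.13% of all regions. Without the block the count ran from 7 without female oxBS library 9 of B cells to 26 without male BS library 1 or female oxBS library 11 of B cells.

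No difference between the sexes was detected in the members. In B cells 0 of 1139 were called between males and females by the quasi-binomial model, with 132 (11.6%) at an unadjusted p under 0.05 against 4.72% of all eligible regions. In T cells 0 of 1142 were called, with 60 (5.25%) against 5.27%. With calls summed over each pair of adjacent library numbers 0 were called in either cell type. At an unadjusted p under 0.05 were 111 (9.75%) in B cells against 4.43% of all regions, and 64 (5.6%) in T cells against 5.35%. Limma called 0 in both, with 22 (1.93%) in B cells against 4.68% of all regions, and 39 (3.42%) in T cells against 4.89%. With the dispersion of each region alone 0 were called, with 22 (1.93%) in B cells against 0.834%, and 9 (0.788%) in T cells against 0.91%. The excess of members in B cells was thus not found with limma. Of all eligible regions, the quasi-binomial model called 0.00655% in B cells, against 0.0127% in T cells. The median difference, males minus females, was 0.0358 points for B cells, against 0.00631 points for T cells. The interaction of cell type and sex was called in 0 of 1138 members by the quasi-binomial model, with 75 (6.59%) at an unadjusted p under 0.05 against 4.67% of all regions. That model called 0.000947% of all eligible regions. Limma called 0 members, with 29 (2.55%) at an unadjusted p under 0.05 against 4.84% of all regions.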

How the data were processed

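The authors deposited, for each library, counts of unmethylated and methylated calls per CpG with both strands combined, on mm10. Per the labels they used Trim Galore 0.6.0, Bismark 0.20.0 and SAMtools 1.3.1. Calls were summed over 1 kb regions counted from position 1 of chromosomes 1 to 19. Members, gene lists and motifs were chosen with earlier results of these data known. Depth is given with the results, and its limit is counting error at a median of 63 to 92 calls per member and library.

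Assay and sex were compared by a quasi-binomial logistic model of the counts (sex and assay terms, cell type interactions in a joint model), with 0.5 prior calls, at least 10 calls in each library, a moderated dispersion of at least 1 and Benjamini-Hochberg adjustment at 0.05 over all regions. It was run on counts simulated at B cell depths with libraries drawn independently. The simulation held no gap between pairs of libraries, so it does not test the model under the division seen in B cells. limma 3.58.1 in R 4.3.3 on log2 ratios was an alternative, as were other limits, filters and leaving out each library. Adjacent library numbers as a block (assay), or calls summed over them (sex), were added after seeing the data. Other steps used Python 3.11.15, NumPy 2.4.6, SciPy 1.17.1 and pandas 2.3.3. Named regions were the longest runs, the 10 largest differences, the leading genes of each list, those beside each limit, those with the smallest p in a test that passed, and the 5 genes with most members. Sequences came from RefSeq GRCm38.p6. Sex chromosomes were not used. A marker promoter and a sequence are not reported here.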

Additional observations from a re-analysis of the deposited data

Results flagged for a closer look

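Of 50 sets of libraries, 44 were the libraries of each cell type at 22 named regions, and 6 were the levels over all members in each cell type and in each assay within it. In 2 of the 50, 1 library stood apart from the others, where chance gives about 1 in 20. At *Wdfy4* in B cells, male oxBS library 3 was at 8.57% and the others between 0 and 2.90%, a gap of 0.662 of the whole range. At *Ap1m1* in B cells, male oxBS library 2 was at 5.17% and the others between 0 and 2.13%, a gap of 0.589. The interaction term called a different assay effect in B and T cells in 14 of 1138 B-only regions (1.23%) in the quasi-binomial model. Of all eligible regions 0.283% were called, and of the T-only regions 4.60%. With the block of adjacent library numbers 26 members were called, against 7021 of 1477908 eligible regions.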

How the results depend on the processing

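The number of B-only regions depended on its limits, with 666 at 10 or more CpGs, 392 at 85 and 30%, and 3608 at 70 and 50%. It was 995, all of them among the 1143, when regions had to lie more than 2 kb from TSSs of every gene type. It lay between 1086 and 1195 when each library was left out in turn. At 75 calls, libraries labelled BS alone gave 1322 regions, of which 1066 were among the 1143, and those labelled oxBS alone 1003, of which 913 were. Male and female libraries alone gave 1163 and 1150, of which 1020 and 1032 were. The mean over CpGs gave 965, of which 891 were. The BS against oxBS calls in T cells fell from 107 to 61 when a difference of 10 points was also required and to 0 with the dispersion of each region alone or with limma, and lay between 77 and 92 without each library in turn. The calls of the cell type by assay interaction fell from 14 to 0 with the dispersion of each region alone or with limma. Without 1 library they lay between 7 and 26: 7 without B cell library 9, 8 without B cell library 12 or T cell library 16, 9 without B cell library 4 or T cell libraries 5, 6 or 13, and 26 without B cell library 1 or 11. Leaving out each library gave between 0 and 1 calls for the assay in B cells, 0 and 2 for sex in B cells, 0 and 1 for sex in T cells, and 0 for the cell type by sex interaction. With 0.1 prior calls, 3 members were called for sex in B cells. The causes were not tested. The labels share no library number between groups, but adjacent numbers pair 1 BS with 1 oxBS library of a sex and cell type. With these pairs as a replicate block, chosen after seeing the data, the calls were 114 for the assay in T cells, 0 for the assay in B cells and 26 for the cell type by assay interaction, and 0 for each with the block and the dispersion of each region alone. With calls summed over each pair, sex and its interaction gave 0 calls.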
